A study of Mus musculus with 18 samples.

Results

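Ischaemia-reperfusion was compared with sham surgery in the left ventricle of aged wild-type mice, using 6 of the 18 libraries of the series, 3 after ischaemia-reperfusion (IR) and 3 after sham. The 6 libraries were taken by what their labels say: C57BL/6 (C57BL/6J in the husbandry notes), genotype WT, age 24 to 26 months, obtained from Charles River. IR meant tying off the left anterior descending coronary branch (45 min) and then letting blood back in (24 h). The sham mice had the thoracotomy without the occlusion. The remaining 12 libraries, used here for the shared estimate of spread and for tests of a difference in response, came from young WT mice (3 to 4 months, The Jackson Laboratory) and from Sesn2-KO mice (genotype Sesn2-/-, 3 to 4 months, bred in the authors' laboratory), each with 3 sham and 3 IR libraries. Poly(A) RNA of whole left ventricle was sequenced, so each library mixes the infarct, its border and the remote wall. The labels do not state that replicates were separate animals, and the p-values below measure only the spread between these libraries.

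Blocking a coronary artery starves the heart muscle it supplies of oxygen, and reopening it brings a burst of oxidants, calcium overload and death of cardiomyocytes. Within a day, dying cells release signals that are read by pattern receptors and by the interleukin-1 receptor. Cytokines and chemokines follow, and neutrophils and then monocytes enter the muscle, while surviving cardiomyocytes reduce contractile and metabolic transcripts and fibroblasts begin to lay down matrix. Ageing is known to impair the resolution of this inflammation and the quality of the scar.

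In the aged left ventricle, the genes that rose after IR included many of inflammation, of white blood cells and of wound matrix, and those that fell included genes of contraction, of ion channels and of glucose uptake. Of 13859 genes tested, 743 were higher (5.36%) and 311 were lower (2.24%), 1054 in all (7.61%), at an adjusted p below 0.05 in edgeR's quasi-likelihood test. The median log2 fold change of all genes was 0.003. That fit takes its spread from all 18 libraries. A fit of the aged WT libraries alone called 883 of 13287 genes tested (561 higher and 322 lower). Of these, 726 were among the 1054. The 3 IR and 3 sham values in CPM, a gene's counts scaled to library size, did not overlap for 3999 genes (28.9%), and this share is the background for each non-overlap given below. Leaving out genes that averaged under 1 CPM, predicted genes and genes whose groups overlapped, the largest called rises were in Arg1, Spp1, Lcn2, Chil3, Cxcl5, Saa3, Trem1, Ankrd2, Ptx3, Timp1, Sprr1a and Il6. By the same rule the largest falls were in Pla2g2d, Fmod, Clcn1, Kcnc1, Tmem52, Olfr78, Lgi3, Cd247, Mettl11b, Sema5b, Pzp and Ces2e.

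**Figure D1:**
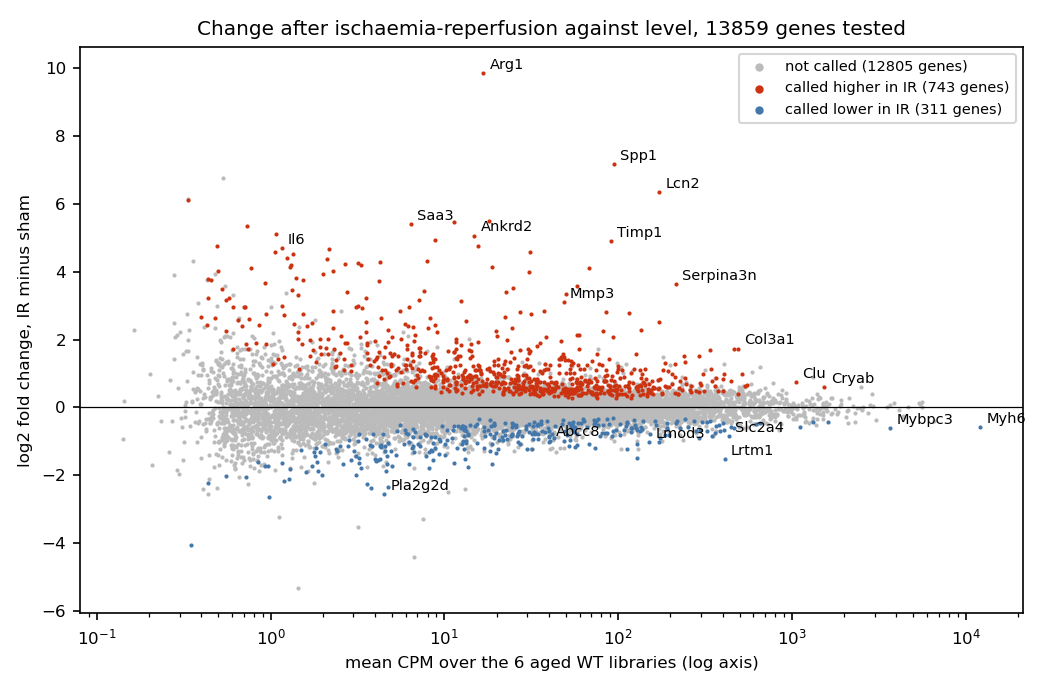
Each point is 1 of the 13859 genes tested, placed by its mean level in CPM over the 6 aged WT libraries (horizontal, log axis) and by its log2 fold change, IR minus sham (vertical). Red points are the 743 genes called higher and blue points the 311 called lower. Spp1 at 7.16 and Lcn2 at 6.34 are among the highest points, and the abundant muscle genes Myh6 at -0.59 and Mybpc3 at -0.62 lie at the far right.

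Depth was 9404531 to 14458047 gene counts per library over the 6 libraries. Their first principal component, which held 54.4% of the variance, placed the sham libraries at -40.3, -19.7 and -32.6 and the IR libraries at 42.3, 16.8 and 33.4, with sham replicate 2 and IR replicate 2 nearest the middle. The slope of log2 CPM on log2 transcript length, which can move with RNA quality and library preparation, was 0.272, 0.114 and 0.188 in sham and 0.015, 0.019 and 0.187 in IR, so that 2 of the 3 IR libraries lay below every sham library. The part of this slope in the calls was not tested gene by gene. With the slope as a covariate 2120 genes were called, 1340 higher and 780 lower, and 962 of the 1054 calls were among them. The slope differed between the groups, so this count cannot tell slope and IR apart. Some single libraries moved the counts: 232 genes were called without sham replicate 1, 260 without IR replicate 1, 440 without sham replicate 3 and 597 without IR replicate 3. The count moved less without sham replicate 2 (936) or IR replicate 2 (1070). Of the 1054 calls, 207 (167 higher and 40 lower) were kept in each of the 6 fits that leave out 1 aged WT library, and these are called stable below.

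The cytokine that stood out was interleukin-6 (Il6, chr5:30013114-30019981 of GRCm38), the ligand of gp130 receptors that drives the acute-phase response. It read 0.0696, 0.0751 and 0.0946 CPM in sham and 2.2, 1.45 and 3.09 CPM in IR. The 3 sham libraries held only 3 counts together against 77 in IR, a ratio of shares of 29.2 with a 95% interval of 9.62 to 145 for counting error only. It rose by the test (adjusted p = 0.00299), stably. The gp130 partner for oncostatin M, Osmr, rose from 24.2, 30.9 and 30 to 69, 65.2 and 90.4 CPM (log2 fold change 1.40 ± 0.21 SE, adjusted p = 0.00116). Socs3, the feedback inhibitor that STAT3 induces to shut this receptor down, rose from 4.45, 7.43 and 6.53 to 39.9, 34.2 and 41.9 CPM (2.66 ± 0.33, adjusted p = 0.000306). Bcl3 rose by a log2 fold change of 1.51 and Il4ra by 1.71, and both were stable. The receptor chains themselves gave other values: Il6st was at 293, 247 and 252 CPM in sham and 250, 261 and 299 CPM in IR, and Il6ra gave -0.00 ± 0.21 on the log2 scale (edgeR adjusted p = 0.999). In all, 6 of 24 members tested of the interleukin-6 family and STAT3 feedback list rose and none fell, with a median of 0.25.

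In the interleukin-1 and TNF system, a ligand, its antagonist and several receptors rose. Il1b, the secreted cytokine, read 0.348, 1.2 and 0.568 CPM in sham and 5.53, 3.58 and 7.95 CPM in IR (log2 fold change 3.00 ± 0.64 SE, adjusted p = 0.0111). Without sham replicate 1 its call was lost (adjusted p = 0.0763). The natural antagonist Il1rn rose from 0.139, 0.901 and 0.378 to 5.46, 3.58 and 6.01 CPM (3.39 ± 0.56, adjusted p = 0.00251). The decoy receptor Il1r2, also a neutrophil gene, rose by 3.94, and the signalling receptor Il1r1 rose by 1.08 ± 0.15. Il33, an alarmin stored in the nuclei of stromal cells, rose from 13.6, 17 and 13.8 to 46.5, 62.3 and 33.3 CPM (1.67 ± 0.23). Il18rap, a chain of the interleukin-18 receptor, rose by 1.97, and its call was lost without sham replicate 1 (adjusted p = 0.0693). Tumour necrosis factor itself, Tnf, was at 0.766, 1.43 and 0.851 CPM in sham and 2.5, 1.34 and 0.795 CPM in IR, and the groups overlapped (adjusted p = 0.471). Of the 32 members tested, 8 rose and none fell, and the median was 0.28.

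The receptor Tnfrsf1a and the TNF-stimulated protein Tnfaip6 were among the stable rises. Tnfrsf1a was at 62.6, 80.9 and 76.2 CPM in sham and 140, 124 and 136 CPM in IR (log2 fold change 0.87 ± 0.11 SE, adjusted p = 0.0003), and Tnfaip6 rose by 1.59. The 250 bases before the RefSeq start of Tnfrsf1a, one of the called genes described here that hold the STAT letters (TTCNNNGAA) there, are shown with those letters in capitals. They lie at chr6:125349473-125349722 (GRCm38.p6, plus strand), and the match begins 244 bases before the start:
Tnfrsf1a: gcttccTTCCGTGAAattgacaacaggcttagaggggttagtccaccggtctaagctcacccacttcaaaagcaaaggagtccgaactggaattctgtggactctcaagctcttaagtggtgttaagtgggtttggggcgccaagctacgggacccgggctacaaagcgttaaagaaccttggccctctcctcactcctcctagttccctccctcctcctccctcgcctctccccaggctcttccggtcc
Windows of 300 bases (250 before to 50 after the start) were at hand for 10508 of the genes tested, and these letters, on either strand, stood in 10.2% of the windows of genes called higher, 5.02% of those called lower and 6.97% of all. Socs3 holds a match beginning 154 bases before its start.

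Several chemokines that call monocytes and neutrophils rose. The monocyte attractants Ccl2 (chr11:82035571-82037453) and Ccl7 (chr11:82045712-82047525), neighbouring genes that bind the receptor Ccr2, had the smallest p among them. Ccl2 read 3.2, 4.51 and 3.88 CPM in sham and 53.3, 30.5 and 39.3 CPM in IR (log2 fold change 3.41 ± 0.34 SE, adjusted p = 5.62e-05). Ccl7 read 2.51, 5.56 and 3.97 CPM in sham and 59.6, 41.2 and 36.7 CPM in IR (3.52 ± 0.35, adjusted p = 4.68e-05). Ccl9 rose by 2.15 and Ccl6 by 2.07, and Ccl12 rose by 1.94. Of the 16 CC chemokines tested, 5 rose, none fell and the median was 1.06; Ccl5, a T cell chemokine, read 1.39, 3.75 and 0.946 CPM in sham and 1.52, 0.559 and 1.06 CPM in IR.

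Among the neutrophil attractants, which act through Cxcr2, Cxcl5 (chr5:90759360-90761624) gave the largest change. It read 0.0696, 1.28 and 0.0946 CPM in sham and 34.9, 17 and 15.1 CPM in IR (log2 fold change 5.47 ± 0.73 SE, adjusted p = 0.000619), so the lowest IR library was above the highest sham library. Cxcl1 rose by 2.08 ± 0.41, and the platelet chemokines Ppbp and Pf4 rose by 1.91 and 1.13. Cxcl2 stayed near 1 CPM, at 0.418, 0.225 and 0.378 CPM in sham and 1.14, 1.34 and 1.41 CPM in IR (1.90 ± 0.55, adjusted p = 0.0456), and lost its call in each of the 6 fits that leave out 1 library (adjusted p up to 0.131). Of 13 CXC and CX3C chemokines tested, 5 rose and none fell, with a median of 1.13. The receptors followed: 5 of 15 rose, led by Cxcr2 (4.19 ± 0.63) and Ccr1 (2.54 ± 0.45), both stable. Ccr2 rose by 1.88 and Cxcr6 by 2.86, each called in the fit of all libraries but lost without sham replicate 1, sham replicate 3, IR replicate 1 or IR replicate 3 (adjusted p up to 0.196 for Ccr2 and 0.17 for Cxcr6). The only receptor that fell was Ackr3, a scavenger of Cxcl12, from 135, 170 and 138 to 96.2, 113 and 99.6 CPM (-0.52 ± 0.12, adjusted p = 0.0135), a call lost without sham replicate 2 or IR replicate 1 (adjusted p up to 0.078). Ccl12 and Pf4 lost theirs without sham replicate 1, sham replicate 3 or IR replicate 1 (adjusted p up to 0.0895 and 0.142).

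Of the gene lists, that of neutrophils, short-lived white cells that are rare in resting heart, had the highest share of rises. Of 18 markers tested, 15 rose and none fell, with a median log2 fold change of 3.76. Genes with low counts were left out before testing, and a marker almost absent in sham could pass through its IR libraries alone. With that filter off, 15 of 22 rose, none fell and the median was 3.13. The summed level of the 18 markers was 11.2, 30.5 and 14.6 CPM in the sham libraries and 222, 129 and 186 CPM in the IR libraries. S100a8 (chr3:90668978-90670035) and S100a9 (chr3:90692632-90695721) encode the subunits of calprotectin, a major neutrophil protein. S100a8 read 0.696, 3.45 and 1.89 CPM in sham and 46.2, 26.4 and 33.3 CPM in IR (4.14 ± 0.52 SE, adjusted p = 0.000381). S100a9 read 1.18, 6.83 and 2.93 CPM in sham and 72.5, 40.6 and 60.2 CPM in IR (3.98 ± 0.55, adjusted p = 0.000787). Both were lowest in IR replicate 2 and highest among the sham libraries in sham replicate 2. Slfn4 rose by 4.31, Clec4d by 2.47, the granulocyte colony-stimulating factor receptor Csf3r by 2.21 and the gelatinase Mmp9 by 2.39. Trem1, a receptor that amplifies neutrophil activation, had 2 counts in sham and 73 in IR, a ratio of shares of 41.5 (95% interval 11.1 to 349). Fpr1, which senses bacterial and mitochondrial peptides, had 3 counts in sham and 52 in IR, a ratio of 19.7 (6.38 to 98.6). The intervals for Trem1 and Fpr1 hold counting error only and leave out the spread between libraries. Of the 15 calls, 10 were stable; with 1 library left out the count of rises was lowest, at 10, without sham replicate 1, where Retnlg (adjusted p = 0.0678) and Mmp8 (0.076) lost their calls. Because whole tissue was sequenced, more cells of a type and more RNA per cell cannot be told apart.

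Recruited monocytes and macrophages, which clear debris after the neutrophils, gave 19 rises among 29 markers tested, no fall and a median of 1.49. Arg1 (chr10:24915221-24927484), the enzyme that turns arginine into ornithine and marks wound macrophages, was at 0, 0.0751 and 0 CPM in sham and 45.1, 12.2 and 43.3 CPM in IR. That is 1 count against 1194, a ratio of shares of 1360 with a 95% interval of 243 to 53700 for counting error only. This interval leaves out the spread between libraries. Spp1 (chr5:104435118-104441050), which encodes osteopontin, rose from 1.11, 1.88 and 0.851 to 302, 107 and 153 CPM (log2 fold change 7.16 ± 0.65 SE, adjusted p = 3.15e-05). Chil3 (chr3:106147554-106167564), a chitinase-like protein of monocytes, rose from 0.278, 1.65 and 0.378 to 59.6, 8.39 and 38.3 CPM (5.49 ± 0.76, adjusted p = 0.000787). IR replicate 2 was the lowest IR library for all 3 genes. Clec4e, a receptor for dead cells, rose by 4.02, Msr1, a scavenger receptor, by 1.99, Ms4a6d by 2.11 and the integrin chain Itgam by 1.69, and all of these were stable. The pan-macrophage genes were different: the receptor gene Csf1r gave -0.03 ± 0.15 on the log2 scale (adjusted p = 0.933), and Lyz2 was at 318, 496 and 317 CPM in sham and 589, 422 and 438 CPM in IR, with overlap. The number of rises fell to 9 without sham replicate 1, 10 without sham replicate 3 and 10 without IR replicate 1; the inflammatory-monocyte genes Plac8, Fcgr1 and Lgals3 were among those lost (adjusted p up to 0.18, 0.0907 and 0.114).

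Markers of resident cardiac macrophages gave a smaller response. Of 18 tested, 4 rose and none fell, with a median of 0.39. F13a1, the transglutaminase chain of factor XIII, was stable and went from 96.7, 124 and 94.1 to 207, 173 and 179 CPM (log2 fold change 0.83 ± 0.15 SE, adjusted p = 0.00437). The mannose receptor Mrc1 rose by 0.78 ± 0.15 and lost its call without sham replicate 1 (adjusted p = 0.0508). Vsig4 rose by 1.11, a call lost in 5 of the 6 fits that leave out 1 library (adjusted p up to 0.18). Lyve1 read 33.1, 43.3 and 39.1 CPM in sham and 55.8, 48.8 and 64 CPM in IR (0.55 ± 0.21, adjusted p = 0.121). The count of rises was 1 without sham replicate 1, 2 without sham replicate 3 and 2 without IR replicate 1.

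Lymphocyte, antigen-presentation and interferon genes gave almost no calls. Among 15 T and NK cell markers tested, with 15 more too low to test, none rose and only Cd247, the zeta chain of the T cell receptor, fell, from 2.78, 3.6 and 3.12 to 0.531, 0.895 and 0.972 CPM (log2 fold change -2.00 ± 0.40 SE, adjusted p = 0.0074; 0.0595 without IR replicate 1). Cd3g read 0.766, 2.1 and 1.04 CPM in sham and 0.455, 0.783 and 0.353 CPM in IR (adjusted p = 0.183). None of 12 B and plasma cell markers tested was called, and none of 7 mast cell markers; the edgeR p-values for Jchain and Cpa3 were 0.382 and 0.19 after adjustment. Of 19 dendritic cell and MHC class II genes, only the cytokine receptor Flt3 rose (1.72 ± 0.49, adjusted p = 0.043), with overlapping groups and a call lost without sham replicate 1, sham replicate 3, IR replicate 1 or IR replicate 3 (adjusted p up to 0.182). The class II chain H2-Aa was at 112, 305 and 131 CPM in sham and 95.4, 64.2 and 75 CPM in IR (-1.22 ± 0.40, adjusted p = 0.0741).

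Sham replicate 2 was set apart in these genes. Its summed level of class II and dendritic cell genes was 1470 CPM against 575 and 620 CPM in the other sham libraries and 406 to 643 CPM in IR. The summed level of 38 interferon-stimulated genes was 800, 1860 and 1100 CPM in sham and 1060, 873 and 824 CPM in IR, and that of the interferon-inducible GTPases was 470, 1360 and 658 CPM in sham and 498, 546 and 399 CPM in IR. No gene of either list passed the test, with medians of -0.42 over 38 tested and -1.02 over 16 tested. Without sham replicate 2 these medians were -0.14 and -0.43, still with no call. In a fit of the 2 aged groups alone, 1 of 38 interferon-stimulated genes and 2 of 16 GTPases were called lower. With the length slope as a covariate these numbers were 2 and 0. Rsad2, an antiviral enzyme, read 35.6, 68.2 and 56.3 CPM in sham and 31.7, 34.1 and 30.1 CPM in IR (adjusted p = 0.136), and Cxcl9, an interferon-gamma target, read 11.2, 21.6 and 10 CPM in sham and 6.52, 5.59 and 6.89 CPM in IR (adjusted p = 0.195). Tgtp1 and Tgtp2 are near-identical copies whose counts could be split between them.

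**Figure D2:**
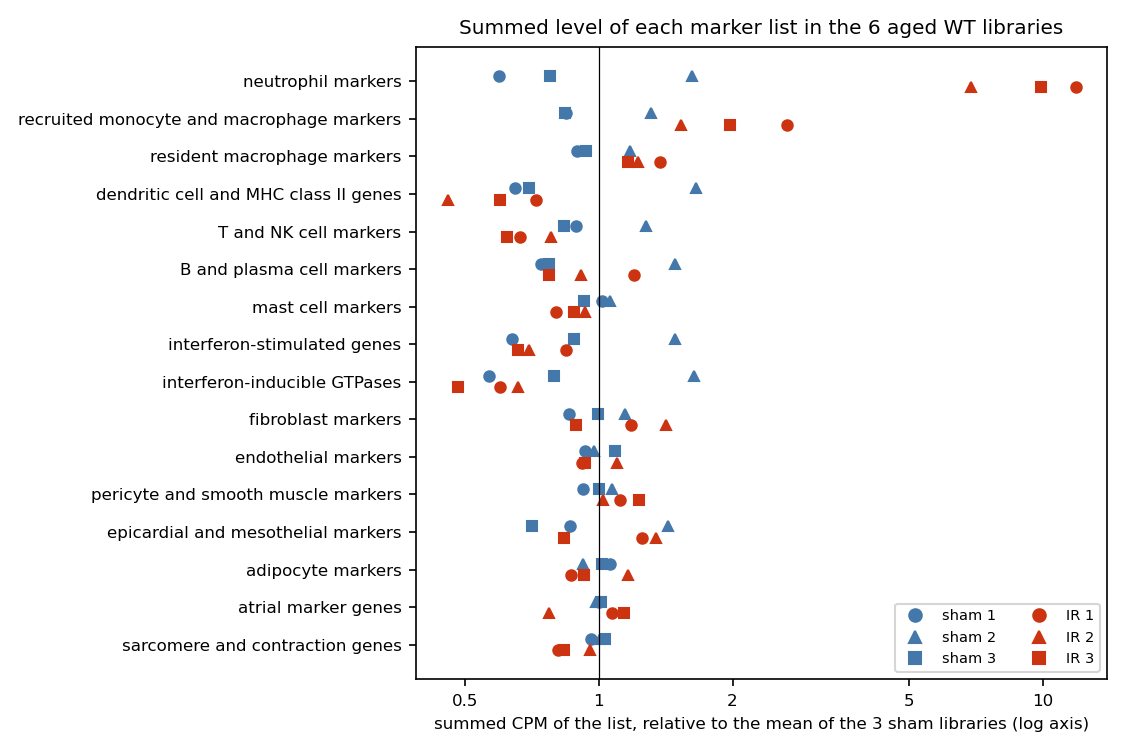
For each marker list the summed CPM of its members in a library are drawn relative to the mean of the 3 sham libraries (horizontal, log axis), in blue for sham and red for IR, with circles, triangles and squares for replicates 1, 2 and 3. The neutrophil sums of 129 to 222 CPM in IR lie far right of the sham sums of 11.2 to 30.5 CPM, whereas for the class II and interferon lists it is the triangle of sham replicate 2 that lies to the right.

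Receptors and adhesion molecules through which these cells act also rose. P-selectin, Selp, which lets white cells roll on activated endothelium and is also made by platelets, went from 0.487, 0.826 and 0.757 to 6.21, 2.91 and 10.2 CPM (log2 fold change 3.23 ± 0.49 SE, adjusted p = 0.00132). Of 20 leukocyte adhesion genes tested, 5 rose, Selp and Itgam stably. Cd44, the hyaluronan receptor, rose by 1.73, Icam1 by 0.66 and Sele by 1.22; the call of Cd44 was lost without sham replicate 1 (adjusted p = 0.0527), that of Icam1 without sham replicate 1 or IR replicate 1 (up to 0.0885) and that of Sele in 5 of the 6 fits that leave out 1 library (up to 0.184). In the toll-like and pattern receptor list 6 of 25 rose, none fell and the median was 0.38. The adaptor Myd88, shared by toll-like and interleukin-1 receptors, rose stably from 17.3, 20.7 and 19.7 to 40.7, 33.8 and 37.3 CPM (0.96 ± 0.14, adjusted p = 0.00118).

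Acute-phase genes showed the most stable response of all groups with more than 4 calls: 6 of 13 tested rose, none fell, the median was 0.72, and all 6 calls were kept whichever library was left out. Lcn2 (chr2:32384633-32388252), which encodes the iron-siderophore binder lipocalin 2, rose from 2.58, 7.51 and 2.27 to 266, 538 and 213 CPM (log2 fold change 6.34 ± 0.73 SE, adjusted p = 0.00019). Serpina3n (chr12:104406729-104414329), a serine protease inhibitor, rose from 27.6, 46.3 and 23.1 to 356, 551 and 294 CPM (3.63 ± 0.35, adjusted p = 3.75e-05). Both were highest in IR replicate 2, the IR library with the lowest summed level of neutrophil markers. Ptx3 (chr3:66219910-66225805), a long pentraxin, rose from 0.487, 0.601 and 0.568 to 22.1, 16.7 and 12.5 CPM (4.94 ± 0.43, adjusted p = 2.89e-05). Saa3 (chr7:46711998-46715700), a serum amyloid made outside the liver, rose from 0.348, 0.375 and 0.0946 to 14.4, 16.6 and 6.89 CPM (5.41 ± 0.61, adjusted p = 0.000161). Haptoglobin, Hp, rose by 2.00 and Lrg1 by 2.51, the latter from 52, 59.9 and 42.4 to 284, 439 and 156 CPM. Serpina3n belongs to a cluster of close copies, so its reads could be shared with Serpina3m and others.

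Of the calls among complement and clotting genes, few were stable. Of 26 complement genes, 3 rose: C5ar1, the receptor for the C5a fragment (1.42 ± 0.25 SE, stable), Cfp, which encodes properdin (1.36), and Clu, which encodes clusterin. Clu had the second largest rise in CPM of all called genes, from 764, 873 and 756 to 1370, 1250 and 1370 CPM (0.74 ± 0.16, adjusted p = 0.0123), and lost its call without sham replicate 1, sham replicate 3 or IR replicate 1 (adjusted p up to 0.0719), as did Cfp (up to 0.085). Of 22 coagulation and fibrinolysis genes, 10 rose, none fell and the median was 0.52. The plasmin receptor subunits rose together: Anxa2 from 100, 138 and 132 to 353, 236 and 313 CPM (1.29 ± 0.22, adjusted p = 0.00319) and S100a10 by 0.92 ± 0.16. The urokinase receptor Plaur rose by 1.74 and its ligand Plau by 0.72; neither was stable, and their adjusted p reached 0.0642 and 0.108 without sham replicate 1 or IR replicate 1. The count of rises was 3 without sham replicate 1 and 5 without IR replicate 1.

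In the matrix, several enzymes that cut or crosslink collagen rose stably, while no collagen chain did. Timp1 (chrX:20870166-20874735), an inhibitor of metalloproteinases, rose from 5.01, 8.94 and 3.59 to 265, 89.6 and 174 CPM (log2 fold change 4.90 ± 0.50 SE, adjusted p = 6.71e-05). Mmp3 (chr9:7445822-7455975), the protease stromelysin-1, had the smallest p of all genes. It read 7.66, 14.7 and 8.04 CPM in sham and 118, 78.6 and 65 CPM in IR (3.10 ± 0.27, adjusted p = 2.89e-05). Of 39 metalloproteinases and inhibitors tested, 11 rose, 1 fell and the median was 0.37. Mmp19, Mmp9, Adam8 and Adamts4 rose stably, by 1.72, 2.39, 3.42 and 4.25. The member that fell was the membrane-type protease Mmp15, from 126, 109 and 92.1 to 58, 56.6 and 77.6 CPM (-0.77 ± 0.20, adjusted p = 0.0269), a call lost without sham replicate 1, sham replicate 2, IR replicate 1 or IR replicate 2 (adjusted p up to 0.147).

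The bases upstream of Mmp3 are shown because it was the called gene with the smallest p and its promoter holds the letters of both AP-1 (TGANTCA, read by Fos and Jun proteins) and C/EBP (TTGCNNAA). The 250 bases before the RefSeq start lie at chr9:7445572-7445821 (GRCm38.p6, plus strand). The capitals mark the C/EBP letters, beginning 148 bases before the start, and the AP-1 letters, beginning 46 bases before it:
Mmp3: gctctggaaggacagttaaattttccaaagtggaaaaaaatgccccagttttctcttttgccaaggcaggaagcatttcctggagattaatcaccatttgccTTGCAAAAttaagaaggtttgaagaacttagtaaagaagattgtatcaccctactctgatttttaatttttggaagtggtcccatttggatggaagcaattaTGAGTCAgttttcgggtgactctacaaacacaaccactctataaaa
On either strand the AP-1 letters stood in 8.01% of the windows of genes called higher, 4.6% of those called lower and 5.16% of all, and the C/EBP letters in 10.4%, 7.95% and 8.41%. Il6 and Mt2 are among the genes that hold AP-1 letters in their windows, and Ptx3, Lcn2, Saa3, Il6 and Mt2 are among those that hold C/EBP letters. Matches of different motifs can overlap, and they are letters only, which say nothing of binding.

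Collagen-building genes rose in part. Lox, the lysyl oxidase that starts collagen crosslinks, went from 6.68, 8.79 and 8.99 to 75.4, 33.3 and 55.8 CPM (log2 fold change 2.76 ± 0.39 SE, adjusted p = 0.000832). Of 28 collagen processing enzymes and crosslinkers, 10 rose, none fell and the median was 0.62; Loxl1 (1.15), Fkbp10 (0.90) and Plod3 (0.71) were stable beside Lox. The count was 4 without sham replicate 1, 5 without sham replicate 3 and 4 without IR replicate 1. Col3a1 (chr1:45311538-45349706), the fibrillar chain of early scar, went from 213, 219 and 247 to 880, 745 and 635 CPM (1.74 ± 0.38, adjusted p = 0.0125), a call lost without sham replicate 1 or IR replicate 1 (adjusted p up to 0.0731). Col1a1 went from 67, 80.7 and 84.9 to 189, 172 and 153 CPM (1.14 ± 0.30, adjusted p = 0.0302) and was lost in each of the 6 fits that leave out 1 library (up to 0.148). Of 33 collagen chains, 6 rose and 2 fell. No rise in this list was stable; both falls were. They were the paired basement-membrane chains Col4a3 (chr1:82586921-82722059), from 6.26, 7.13 and 7.1 to 2.88, 2.24 and 2.47 CPM (-1.42 ± 0.25), and Col4a4 (chr1:82448423-82586849), from 10.9, 11.5 and 13 to 5.38, 5.15 and 4.33 CPM (-1.24 ± 0.26), which are neighbours on the chromosome. The rises among collagens numbered 0 without sham replicate 1, 3 without sham replicate 2, 2 without sham replicate 3, 0 without IR replicate 1 and 2 without IR replicate 3.

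Other matrix and fibroblast genes ranged widely. Of 39 matricellular and basement membrane genes, 11 rose and 1 fell, with a median of 0.18. Thbs1, which activates latent TGF-beta, rose from 8.77, 9.91 and 8.89 to 49, 35.7 and 112 CPM (log2 fold change 2.84 ± 0.49 SE), and Vcan (1.49), Emilin1 (1.28) and the hyaluronan synthase Has2 (2.34) were also stable. Agrn, which encodes agrin, fell by 0.76 on the log2 scale, a call lost without IR replicate 1 (adjusted p = 0.0662). Of 21 fibroblast markers, 4 rose and none fell, with a median of 0.11. Medag alone was stable (1.25 ± 0.18), while Pdgfra, the receptor that defines cardiac fibroblasts, rose by 0.61 ± 0.16 and lost its call in 5 of the 6 fits that leave out 1 library (adjusted p up to 0.172). Of 23 activated fibroblast genes, 5 rose; Postn, the myofibroblast marker periostin, read 98.1, 131 and 110 CPM in sham and 185, 110 and 183 CPM in IR and overlapped (adjusted p = 0.619). Fibromodulin, Fmod, was the only one of 12 small leucine-rich proteoglycans called, and it fell from 7.87, 5.18 and 5.87 to 1.36, 1.12 and 1.15 CPM (-2.36 ± 0.50, adjusted p = 0.0108; up to 0.0616 without sham replicate 1 or IR replicate 1). In TGF-beta and BMP signalling 3 of 44 rose and 1 fell, a share near that of all genes.

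Of 28 endothelial markers, none rose and only Kdr, the main receptor for vascular endothelial growth factor, fell, from 207, 225 and 236 to 165, 159 and 162 CPM (log2 fold change -0.46 ± 0.12 SE, adjusted p = 0.0314). Its call was lost in each of the 6 fits that leave out 1 library (adjusted p up to 0.114). Pecam1 was at 239, 233 and 278 CPM in sham and 214, 234 and 236 CPM in IR. Among 48 angiogenic ligands and receptors, 5 rose and 1 fell, against 5.36% and 2.24% of all genes. Angptl4, a lipase inhibitor induced by fatty acids and low oxygen, rose from 7.1, 5.48 and 14.4 to 91.5, 103 and 126 CPM (3.59 ± 0.55, adjusted p = 0.00149) and was stable, as was Egfr (0.86 ± 0.15). Aldh1a2, the retinoic acid synthesis enzyme of activated epicardium, rose from 9.75, 10.4 and 6.53 to 120, 58.5 and 95 CPM (3.35 ± 0.52, adjusted p = 0.00154) and was the only one of 16 epicardial and mesothelial markers called. The mesothelial marker Upk3b was at 7.59, 5.86 and 7.57 CPM in sham and 4.17, 1.57 and 0.883 CPM in IR (adjusted p = 0.304).

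Of 27 sarcomere and contraction genes, 5 fell and none rose, with a median of -0.23. Myh6 (chr14:54941921-54966927), the fast alpha-myosin heavy chain of adult mouse heart, had the largest fall in CPM of all called genes, from 14500, 14600 and 14400 to 8960, 11100 and 8880 CPM (log2 fold change -0.59 ± 0.16 SE, adjusted p = 0.0312). Mybpc3 (chr2:91118144-91136516), cardiac myosin-binding protein C, fell from 4310, 4450 and 4580 to 2680, 2990 and 3010 CPM (-0.62 ± 0.13, adjusted p = 0.00978). The stable falls were Lmod3 (chr6:97238534-97252759), a nucleator of thin filaments, from 210, 220 and 177 to 99.3, 90.1 and 107 CPM (-1.03 ± 0.15, adjusted p = 0.00096), and Myh7b, from 66.8, 69.8 and 79.4 to 22.4, 32.9 and 42.6 CPM (-1.14 ± 0.22, adjusted p = 0.00643). Troponin T, Tnnt2, was at 4700, 5290 and 5300 CPM in sham and 5280, 6420 and 5170 CPM in IR. Myh6 lost its call in 5 of the 6 fits that leave out 1 library (adjusted p up to 0.136) and Mybpc3 without IR replicate 1 (0.066). Atrial genes were at low level but uneven: Myl7 read 19.7, 2.78 and 16 CPM in sham and 1.06, 0 and 0.53 CPM in IR, and none of 14 atrial genes was called. In a fit of the 2 aged groups alone, 4 of the 12 atrial genes tested were called lower. The part of atrial tissue in the falls was not tested.

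Some genes listed for cardiomyocyte stress rose, though in whole tissue the cells in which they rose cannot be told. Ankrd2 (chr19:42036000-42045110), a stretch-responsive partner of titin usually found in slow skeletal muscle, rose from 0.975, 0.826 and 0.757 to 44.7, 7.05 and 35 CPM (log2 fold change 5.07 ± 0.98 SE, adjusted p = 0.00643). Sprr1a (chr3:92483952-92485895), a small proline-rich protein induced in stressed cardiomyocytes, rose from 0.696, 1.8 and 0.851 to 36.5, 15.3 and 38.9 CPM (4.75 ± 0.82, adjusted p = 0.00358). Both were stable and both were lowest in IR replicate 2. The small heat shock protein Cryab had the largest rise in CPM of all called genes, from 1050, 1310 and 1290 to 1930, 1730 and 1900 CPM (0.61 ± 0.16, adjusted p = 0.0287), and Fhl1 rose from 207, 212 and 228 to 790, 372 and 989 CPM (1.73 ± 0.49, adjusted p = 0.0417). Of 27 cardiomyocyte stress and foetal genes, 5 rose, none fell and the median was 0.61. The natriuretic peptide genes overlapped between groups: Nppa was at 124, 260 and 218 CPM in sham and 564, 173 and 560 CPM in IR (adjusted p = 0.238), Nppb was at 96.5, 382 and 234 CPM in sham and 655, 273 and 795 CPM in IR (adjusted p = 0.267), and Myh7, the foetal myosin, was at 285, 1400 and 2160 CPM in sham and 820, 1890 and 2080 CPM in IR (adjusted p = 0.872). The list gave 2 calls without sham replicate 1, sham replicate 3, IR replicate 1 or IR replicate 3 3 without sham replicate 2 and 7 without IR replicate 2; Cryab (adjusted p up to 0.158), Hspb1 (0.153) and Fhl1 (0.159) were those lost.

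**Figure D3:**
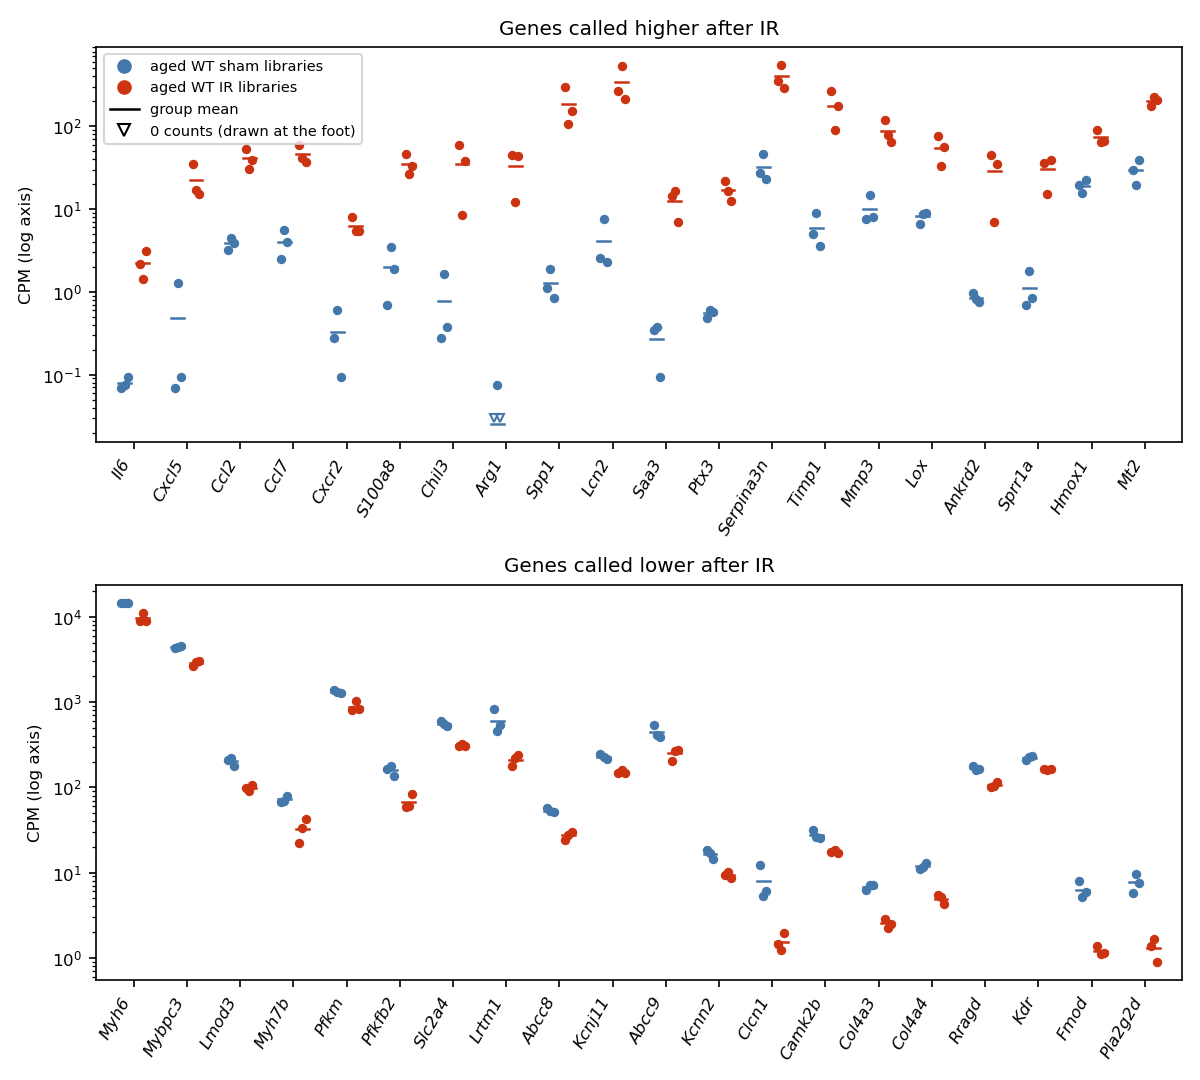
CPM values (log axis) of 20 genes called higher (upper panel) and 20 called lower (lower panel) are drawn for each aged WT library, blue for sham and red for IR, with a short line at the group mean and an open triangle for a library with 0 counts. In every column the red and blue points are separate, by a wide gap for genes such as Spp1 (0.851 to 1.88 CPM against 107 to 302 CPM) and by a narrow one for Kdr (207 to 236 CPM against 159 to 165 CPM).

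Of 50 potassium, sodium and pacemaker channel genes, 8 fell and 1 rose, with a median of -0.43. They included 3 genes for subunits of the ATP-sensitive potassium channel, which opens when ATP is short and shortens the action potential; a further pore gene, Kcnj8, was at 73.3, 86.1 and 84 CPM in sham and 69.5, 84.3 and 62.7 CPM in IR. Abcc8 (chr7:46104523-46180033), the sulphonylurea receptor SUR1, fell from 56.7, 52.3 and 51.3 to 24.1, 27.9 and 29.6 CPM (log2 fold change -0.98 ± 0.12 SE, adjusted p = 0.000227). The pore gene next to it, Kcnj11 (chr7:46093953-46100764), fell from 246, 228 and 214 to 146, 159 and 149 CPM (-0.60 ± 0.11, adjusted p = 0.00467). Abcc9 (chr6:142587862-142702315), encoding SUR2, fell from 537, 415 and 389 to 206, 266 and 277 CPM (-0.84 ± 0.19, adjusted p = 0.0132), a call lost without sham replicate 1 or IR replicate 1 (up to 0.0907). The calcium-activated channel gene Kcnn2 fell by 0.83 on the log2 scale, and the chloride channel gene Clcn1 fell by 2.36, the latter from 12.4, 5.26 and 6.15 to 1.44, 1.23 and 1.94 CPM, and both were stable. Kcnc1 fell from 4.8, 7.36 and 5.77 to 1.59, 1.34 and 0.795 CPM (-2.25 ± 0.49, adjusted p = 0.0123; 0.0529 without IR replicate 3). The only rise was Kcne4, an inhibitory subunit, from 6.06, 7.13 and 6.53 to 24.1, 11.4 and 9.28 CPM (1.19 ± 0.26, adjusted p = 0.0121; 0.0731 without sham replicate 1). Falls in this list numbered 5 without sham replicate 1, 5 without IR replicate 1 and 5 without IR replicate 3.

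Calcium-cycling genes mostly had values below 0 without passing the test. Of 38 tested, 8 had a positive log2 fold change, 3 fell, 1 rose, and the median was -0.29. Camk2b, a chain of calmodulin kinase II, fell stably from 31.7, 26.3 and 25.1 to 17.4, 18.6 and 16.9 CPM (log2 fold change -0.65 ± 0.11 SE, adjusted p = 0.00368). Asph and Itpr1 fell by 0.44 and 0.42 on the log2 scale, and their calls were lost in 5 and 4 of the 6 fits that leave out 1 library (adjusted p up to 0.195 and 0.221). The sarcoplasmic calcium pump Atp2a2 was at 8490, 6480 and 7390 CPM in sham and 5040, 5630 and 6260 CPM in IR (-0.40 ± 0.21, adjusted p = 0.263).

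In the metabolic lists, calls fell mainly in sugar use. Slc2a4 (chr11:69942539-69948188), which encodes the insulin-responsive glucose carrier GLUT4, fell from 603, 549 and 520 to 308, 321 and 303 CPM (log2 fold change -0.84 ± 0.15 SE, adjusted p = 0.00467), and Pfkfb2 (chr1:130689182-130729253), the cardiac enzyme that makes the activator of phosphofructokinase, fell from 166, 176 and 135 to 58.8, 59.9 and 83.4 CPM (-1.24 ± 0.20, adjusted p = 0.00251). Both were stable. Pfkm, muscle phosphofructokinase, fell from 1370, 1320 and 1280 to 811, 1020 and 829 CPM (-0.58 ± 0.13, adjusted p = 0.0166), and the lactate exporter Slc16a3 rose from 2.09, 3.75 and 2.55 to 19.4, 5.93 and 19.6 CPM (2.43 ± 0.49, adjusted p = 0.00789). The pentose phosphate enzymes Pgd and G6pdx rose by 0.52 and 0.64. In all, 3 of 34 glycolysis and lactate genes rose and 3 fell. No call was made in the main fit among 39 genes of fatty acid uptake and oxidation (median 0.12), 40 of the TCA cycle and branched-chain amino acid catabolism (-0.19, with a positive value in only 2), or 73 nuclear-encoded subunits of the respiratory chain and ATP synthase (0.14). With limma voom and quality weights, 4, 10 and 1 of these were called lower and none higher. DESeq2's Wald test called 1, 1 and 0 lower. In these lists, Pdk4 was at 430, 142 and 618 CPM in sham and 736, 1030 and 960 CPM in IR (adjusted p = 0.225), Ogdh at 3060, 2400 and 2520 and then 1680, 2070 and 2130 CPM (0.116), and Ndufs1 at 1200, 1100 and 1190 and then 847, 1050 and 966 CPM (0.215). Pfkm lost its call without sham replicate 1, IR replicate 1 or IR replicate 3 (adjusted p up to 0.0895), Slc16a3 without sham replicate 1 (0.062), and Pgd and G6pdx in 4 and 3 fits (up to 0.145 and 0.19).

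Many protein-folding genes of the endoplasmic reticulum rose, but only 2 of the calls were stable. Of 30 tested, 14 rose, none fell, 27 had a positive value and the median was 0.64. The stable pair was Creld2 (chr15:88819646-88826683), a secreted chaperone, from 17.2, 21.1 and 16.9 to 39.9, 34.6 and 51.7 CPM (log2 fold change 1.19 ± 0.21 SE, adjusted p = 0.00375), and Xbp1, the transcription factor activated by IRE1, from 83.2, 110 and 93.1 to 165, 154 and 203 CPM (0.87 ± 0.16, adjusted p = 0.00467). The survival factor Manf rose by 1.56, the disulphide isomerases Pdia6 by 1.11 and P4hb by 0.63, and the translocon subunit Sec61b by 1.22. Hspa5, which encodes the chaperone BiP, was at 539, 675 and 558 CPM in sham and 838, 743 and 1310 CPM in IR (0.70 ± 0.27, adjusted p = 0.123). The count of rises was 2 without sham replicate 1, 5 without sham replicate 3, 6 without IR replicate 1 and 7 without IR replicate 3, and 22 with the length slope as a covariate; Manf (0.0691), Pdia6 (0.07), P4hb (up to 0.0518) and Sec61b (up to 0.076) lost theirs without sham replicate 1.

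The upstream bases of Creld2 are shown for the ER stress element (CCAAT, 9 bases, CCACG), which ATF6 and XBP1 read. They lie at chr15:88819396-88819645 (GRCm38.p6, plus strand), and the capitals mark the element, which reads on the other strand and begins 126 bases before the start:
Creld2: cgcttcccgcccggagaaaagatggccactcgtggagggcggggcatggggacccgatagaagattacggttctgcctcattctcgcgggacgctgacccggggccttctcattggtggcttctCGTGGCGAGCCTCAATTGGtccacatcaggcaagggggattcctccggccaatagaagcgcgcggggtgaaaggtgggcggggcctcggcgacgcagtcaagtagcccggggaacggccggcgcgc
The element stood in 4 of 549 windows of genes called higher (0.729%), 0 of 239 of those called lower and 17 of 10508 of all (0.162%). The 4 called genes were Calr, Creld2, Dnajc3 and Pdia6, all members of the ER chaperone list, with rises of 0.85, 1.19, 0.39 and 1.11 on the log2 scale. Calr and Dnajc3 lost their calls without sham replicate 1, sham replicate 3, IR replicate 1 or IR replicate 3 (adjusted p up to 0.087 and 0.174). Hspa5 and Derl3 are among the genes that hold the element and were not called. For 7 further motifs the shares among genes called higher, called lower and all were 40.3%, 36.4% and 35.1% for the kappa-B consensus, 2.0%, 0.418% and 3.19% for the cyclic AMP element (TGACGTCA), 2.55%, 0.837% and 2.22% for the C/EBP-ATF element (TGATGNAAN), 8.93%, 10.9% and 10.2% for the E-box (CACGTG), 0%, 0.837% and 0.438% for the heat shock element, 0.364%, 0.418% and 0.305% for the interferon element and 2.19%, 1.26% and 1.32% for the CArG box.

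Oxidant and metal defence had a small stable core. Hmox1, haem oxygenase-1, rose from 19.5, 15.6 and 22.7 to 91, 65.1 and 66.3 CPM (log2 fold change 1.95 ± 0.21 SE, adjusted p = 0.000138). The metallothionein genes Mt2 (chr8:94172664-94173568) and Mt1 (chr8:94179082-94180327), neighbours that bind zinc and copper, rose from 29.6, 19.8 and 38.9 to 177, 224 and 206 CPM (2.78 ± 0.30, adjusted p = 9.92e-05) and from 132, 117 and 165 to 321, 420 and 299 CPM (1.33 ± 0.24, adjusted p = 0.00443). They are close copies, and reads could be split between them. Of 43 genes in the list, 9 rose, none fell and the median was 0.29; the others included the phagocyte oxidase subunit Ncf1 (1.16), a gene of white cells. Nqo1, a target of NRF2, was at 148, 163 and 215 CPM in sham and 151, 201 and 126 CPM in IR (adjusted p = 0.752). The count was 3 without sham replicate 1, 5 without sham replicate 3 and 3 without IR replicate 1, and Ncf1 was lost in each of these (adjusted p up to 0.131). Of 28 hypoxia response genes, 3 rose, none fell and the median was 0.13. Those that rose were Angptl4, Lox and the lipid-droplet protein Plin2 (1.13 ± 0.19), and all 3 were stable. P4ha1, Car9 and Hilpda, with the next smallest p in the list, were not called. Angptl4 and Lox are also members of other lists here.

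Cytosolic chaperones, growth and cell cycle genes gave calls that depended on single libraries. Of 34 heat shock genes, 6 rose and 1 fell; Hspa1b, the inducible HSP70 and a near copy of Hspa1a, rose from 1.95, 2.48 and 2.08 to 6.82, 5.48 and 5.83 CPM (log2 fold change 1.48 ± 0.35 SE, adjusted p = 0.0189; up to 0.101). No heat shock call was kept without sham replicate 1 or IR replicate 1, and without sham replicate 3 only 1 was, a fall. Of 30 immediate early genes, 8 rose, none fell and the median was 0.56, with Junb (1.47), Ier3 (1.05) and Myc (1.84) stable and Fosl1, at 0.0696, 0 and 0.284 CPM in sham and 2.58, 0.671 and 4.51 CPM in IR, lost without sham replicate 1 (adjusted p = 0.0589). The number of rises was 3 without sham replicate 1, 4 without sham replicate 3, 4 without IR replicate 1 and 5 without IR replicate 3. Psat1, a serine synthesis enzyme driven by ATF4, rose stably from 6.06, 8.19 and 4.16 to 27.6, 15.2 and 24.3 CPM (1.86 ± 0.28, adjusted p = 0.0014), alone among 5 rises of 30 integrated stress response genes. Of 43 cell cycle genes, 5 rose, none stably; Cdt1, which licenses replication origins, rose from 2.51, 1.88 and 2.18 to 7.5, 3.8 and 6.36 CPM (1.44 ± 0.37, adjusted p = 0.0278; up to 0.148).

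Of 40 cell death and p53 target genes, 4 rose, among them Bax (0.54), which permeabilises mitochondria, and the survival genes Bcl2a1a and Bcl2a1b, near-identical copies whose counts could be split. None of the 4 was stable: no member was called without sham replicate 1, sham replicate 3 or IR replicate 1 and 1 was without IR replicate 3 (adjusted p up to 0.219 for Bax, 0.127 for Bcl2a1a and 0.0898 for Bcl2a1b). Of 43 lysosome and autophagy genes, 6 rose, among them the proteases Ctsc (0.91; adjusted p = 0.0517 without sham replicate 1) and Ctsz (0.77; up to 0.183 without sham replicate 1, sham replicate 3 or IR replicate 1). Of 37 ribosome biogenesis and translation factors, 8 rose, and the initiation factor Eif1a was the stable one (1.25). Of 35 proteasome subunits 2 rose, and of 16 pericyte and smooth muscle markers none rose and Abcc9 fell, counts near the shares of all genes. Among 14 Schwann cell and neuron markers, Tubb3, a tubulin of neurons, rose stably from 2.51, 1.95 and 2.46 to 18.7, 9.18 and 14.6 CPM, and Dbh, the enzyme of noradrenaline synthesis, fell, a call lost in 5 of the 6 fits that leave out 1 library (adjusted p up to 0.173).

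Of 57 cytosolic ribosomal protein genes, all had a positive value, with a median of 0.45, and 46 had groups that did not overlap, but only Rpl3 passed the test (209, 316 and 255 CPM in sham; 567, 433 and 426 CPM in IR; log2 fold change 0.87 ± 0.24 SE, adjusted p = 0.0364, up to 0.182 without single libraries). Their summed level was 16000, 20600 and 19700 CPM in sham and 27200, 27800 and 22000 CPM in IR. These are short transcripts, and with the length slope as a covariate the median was 0.18 and none was called. The count of calls depended on the method. Of the 57 genes, limma's weighted fit called 46 higher (median 0.45) and the DESeq2 fit 7 (median 0.43), and neither called any lower. Upper quartile scaling gave no call (median 0.42). The part of length in the values of these genes was not tested further. Many have processed copies in the genome that could take reads.

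Of 40 genes of the actin skeleton and of membrane repair tested, 19 rose, 1 fell, 38 had a positive value and the median was 0.64. S100a4, a calcium-binding protein of motile cells, rose from 12, 20.2 and 12.2 to 92.8, 43.5 and 51 CPM (log2 fold change 2.08 ± 0.33 SE, adjusted p = 0.00206), and the Arp2/3 subunit Arpc1b from 75.5, 106 and 95.2 to 215, 168 and 167 CPM (0.99 ± 0.16, adjusted p = 0.00233). The annexins Anxa2 and Anxa7, which seal torn membranes, rose by 1.29 and 0.86, and S100a11 by 1.03. These 5, with Capg (1.39) and S100a10, were the stable rises. Ezr, which encodes ezrin, was the one fall (-0.35 ± 0.10, adjusted p = 0.0493; up to 0.245). The list gave 7 rises without sham replicate 1, 8 without sham replicate 3, 7 without IR replicate 1 and 12 without IR replicate 3.

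**Figure D4:**
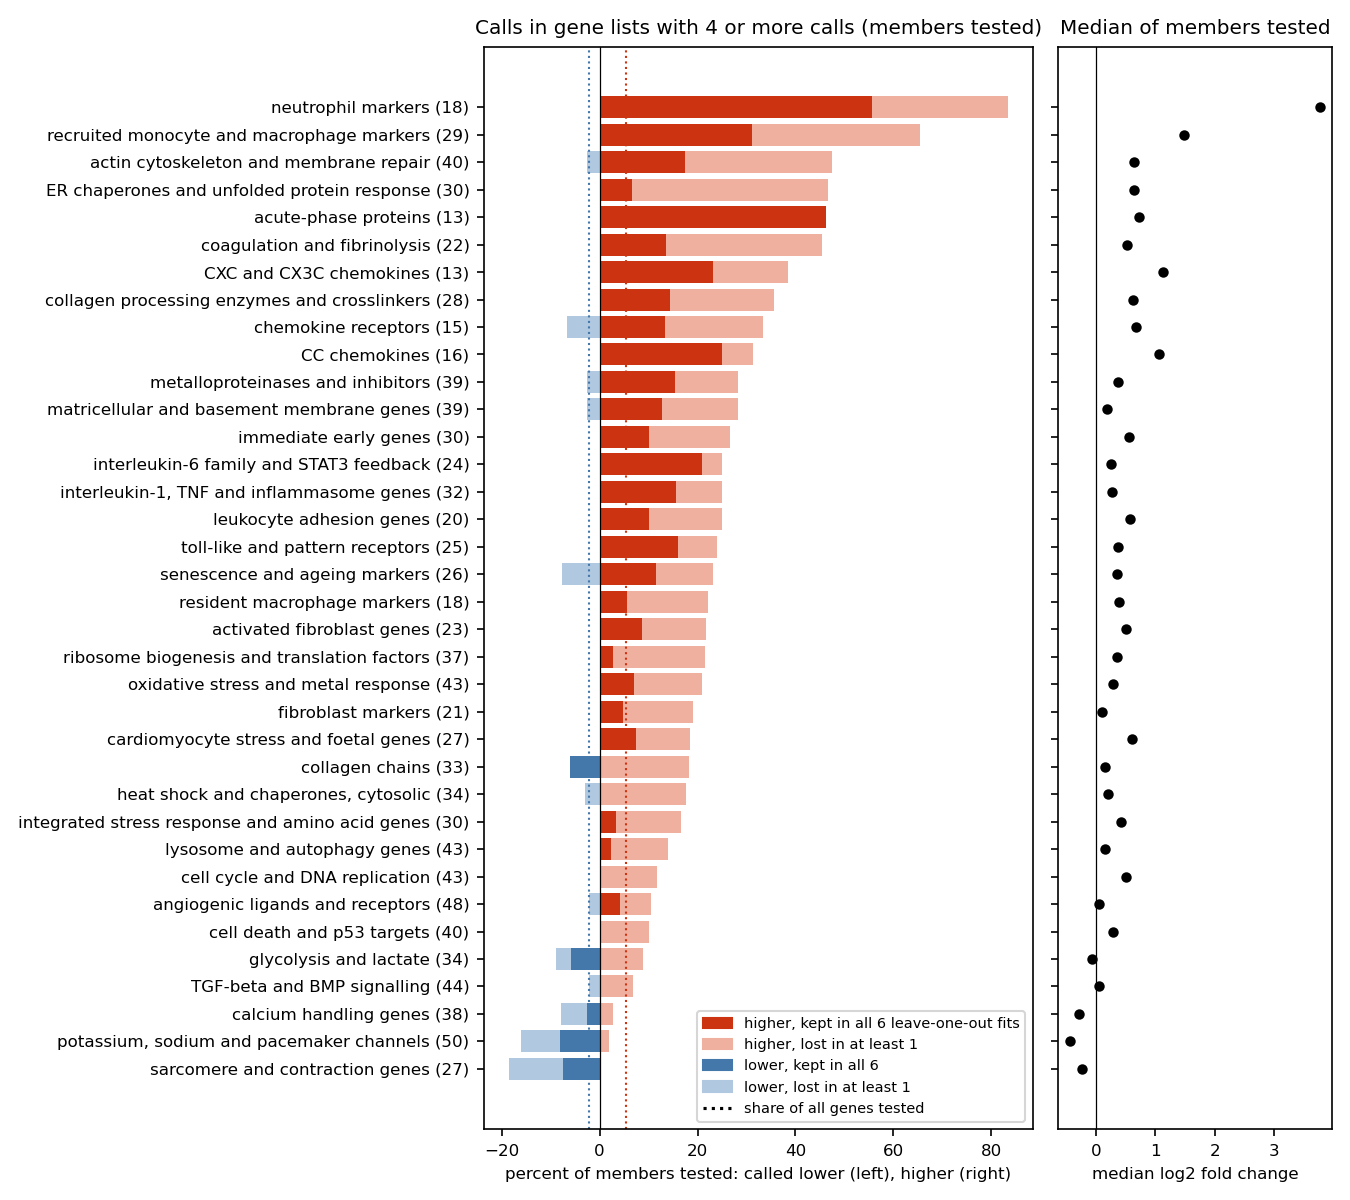
For each gene list with 4 or more calls (members tested in brackets), the left panel gives the percent of members tested that were called higher (red, to the right) or lower (blue, to the left), dark where the call was kept in all 6 fits that leave out 1 aged WT library and pale where it was not; dotted lines mark the shares of all genes, 5.36% and 2.24%. The right panel gives the median log2 fold change of the members tested: neutrophil markers lead at 3.76, and the channel, calcium and sarcomere lists lie at the foot with medians of -0.43, -0.29 and -0.23.

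Genes tied to ageing, time of day and nutrient sensing were examined as well. Of 26 senescence and ageing markers, 6 rose and 2 fell, and the stable ones were the secreted factors Il6, Ccl2 and Mmp3 already described. Cdkn1a, the cell cycle inhibitor p21, read 13.4, 20.1 and 14.7 CPM in sham and 40.8, 22.8 and 56.7 CPM in IR (log2 fold change 1.32 ± 0.42 SE, adjusted p = 0.0654). Igfbp5 fell from 238, 237 and 207 to 111, 138 and 115 CPM (-0.91 ± 0.20, adjusted p = 0.0117; up to 0.066), and Sirt3, the mitochondrial deacetylase, fell from 73.3, 72.3 and 68.3 to 51.5, 56.1 and 46.8 CPM (-0.47 ± 0.14, adjusted p = 0.0497; up to 0.171). Of 19 core clock genes only Ciart fell, from 16.8, 14.6 and 20 to 4.62, 5.37 and 6.36 CPM (-1.65 ± 0.45, adjusted p = 0.0358; up to 0.16). Among 39 genes of sestrins, GATOR complexes and mTORC1, 1 rose and 2 fell, a share near that of all genes. Rragd, a GTPase that carries amino acid signals to mTORC1, fell stably from 176, 161 and 164 to 102, 104 and 117 CPM (-0.63 ± 0.11, adjusted p = 0.00375). The sestrins, stress-induced proteins that restrain mTORC1, were not called: Sesn1 was at 247, 209 and 211 CPM in sham and 134, 142 and 191 CPM in IR (adjusted p = 0.103), Sesn2 at 4.04, 4.28 and 3.41 CPM and 3.11, 4.7 and 3.27 CPM (0.911), and Sesn3 at 8.07, 3.75 and 4.54 CPM and 3.56, 2.91 and 4.15 CPM (0.265).

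Whether the aged response differed from that of young WT hearts was tested by the difference of the 2 log2 fold changes in the same model. No gene passed (0%), with 152 of 13859 at an unadjusted p below 0.05, and none passed by DESeq2 or limma either. For Spp1 the difference, aged minus young, was 0.06 ± 1.12 SE, for Lcn2 0.31 ± 0.92, for Mmp3 -0.67 ± 0.37, for Myh6 -0.15 ± 0.22 and for Abcc8 -0.19 ± 0.16, each with an adjusted p of 1. A missed threshold does not show that the responses were alike, and age and supplier cannot be told apart in this comparison.

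Against Sesn2-KO hearts, in which Sesn2 itself averaged 0.173 CPM in sham and 0.231 CPM in IR, the log2 fold change was larger in aged WT for 7 genes (0.0505% of those tested) and smaller for none. They were Lcn2, Spp1, Saa3, Ptx3, Serpina3n, Serpina3i and Mmp3, and all 7 are secreted proteins. The Sesn2-KO libraries labelled sham were high in them. For Lcn2 these read 149, 618 and 348 CPM, and the Sesn2-KO IR libraries 582, 295 and 305 CPM, against 2.58, 7.51 and 2.27 CPM in aged sham. For Spp1 the Sesn2-KO libraries read 46.4, 87.9 and 68.6 CPM in sham and 195, 237 and 179 CPM in IR, and for Mmp3 115, 87.7 and 88.8 CPM in sham and 144, 146 and 109 CPM in IR. The difference of log2 fold changes, aged minus Sesn2-KO, was 6.26 ± 0.89 SE for Lcn2, 5.57 ± 0.78 for Spp1, 5.54 ± 0.76 for Saa3, 3.90 ± 0.55 for Ptx3 and 3.84 ± 0.46 for Serpina3n. Each difference rests on libraries labelled Sesn2-KO sham that stand well above the sham libraries of both WT groups, and whether the surgery or the labels of that group have a part in this was not tested. Genotype, age and breeding place cannot be told apart here. The number of genes was 2 without aged sham replicate 1 and 13 without Sesn2-KO sham replicate 1.

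**Figure D5:**
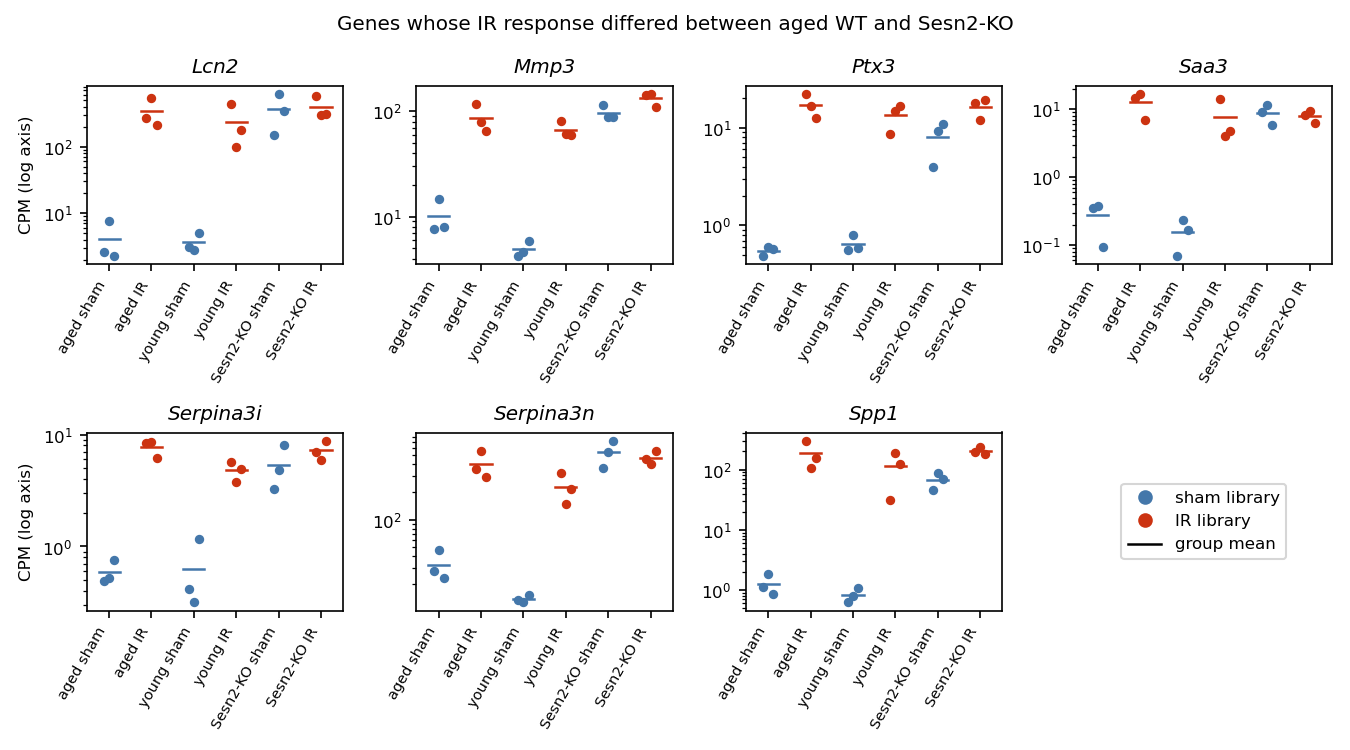
CPM values (log axis) of the 7 genes in the 3 libraries of each of the 6 groups, blue for sham and red for IR, with a line at the group mean. In aged and young WT the sham points lie far below the IR points, as for Lcn2 at 2.27 to 7.51 CPM in aged sham, whereas the points labelled Sesn2-KO sham lie far above the other sham points. For Lcn2 they overlap the IR points (149 to 618 CPM), and for Spp1 they lie below the Sesn2-KO IR points (46.4 to 87.9 CPM against 179 to 237 CPM).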

How the data were processed

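Poly(A) RNA of mouse left ventricle was made into stranded libraries and sequenced as paired reads, per the labels' protocols. The authors deposited raw counts per gene symbol; the submitters' processing notes name FastQC, Bowtie2, TopHat2, SAMtools, HTSeq and the build mm10, with versions, settings, strand mode and annotation not given in the sources used here. The lines for reads in no feature (6.12% to 7.73%) and ambiguous reads (0.664% to 0.759%) were left out. Genes were filtered with filterByExpr, scaled by TMM and fitted with edgeR 4.0.16 (R 4.3.3) quasi-likelihood over 18 libraries in 6 groups. A gene was called at a Benjamini-Hochberg adjusted p below 0.05. Log2 fold changes are IR minus sham. The model was also run on counts simulated from its own means and spread. These held no length slope and no outlying library, so that run says nothing of either. Alternatives used DESeq2 1.42.0, limma 3.58.1, other scalings and filters, a covariate and left-out libraries. Gene positions are GENCODE M21 on GRCm38, and promoters come from RefSeq.

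The members and the 62 gene lists were chosen with earlier results of these data known, and list counts are descriptions. Named genes were the 12 highest and 12 lowest called changes (mean of at least 1 CPM, groups not overlapping, predicted genes left out), the 6 largest rises and falls in CPM, up to 6 members of each list with the smallest p, members called against their list, up to 5 genes in each direction of a difference between responses, and the sestrins. Genes outside it were named after their values were seen. The labels' replicate numbers were not used as pairs in the main fit. Deviations of sham and IR libraries with the same number correlated at -0.22, 0.05 and -0.07. With 3 libraries in each group, these values cannot decide whether the numbers pair the libraries. Within the aged sham and aged IR groups, the only pairs compared, no libraries were duplicates (chi-square per degree of freedom 8.48 to 32). Results for some genes are not reported here.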

Additional observations from a re-analysis of the deposited data

Results flagged for a closer look

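For 7 genes the IR response differed between aged WT and Sesn2-KO hearts by the test of the difference itself (edgeR's quasi-likelihood test, Benjamini-Hochberg adjusted). The difference of log2 fold changes, aged WT minus Sesn2-KO, was 6.26 for Lcn2 (adjusted p = 0.00651), 5.57 for Spp1, 5.54 for Saa3, 3.90 for Ptx3, 3.84 for Serpina3n (0.00374), 3.29 for Serpina3i (0.0291) and 2.65 for Mmp3. The 3 libraries labelled Sesn2-KO sham read 365, 549 and 723 CPM for Serpina3n, 8.94, 11.3 and 5.78 CPM for Saa3, 3.92, 9.17 and 10.8 CPM for Ptx3 and 3.27, 4.84 and 8.08 CPM for Serpina3i. These lie above every sham library of aged and young WT, and whether the surgery or the labels of that group have a part in this was not tested. Genotype, age and the source of the mice cannot be told apart.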

How the results depend on the processing

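Of the 1054 calls (743 higher, 311 lower), the number ranged from 232 to 1070 when 1 aged WT library was left out, with 176 to 791 higher and 52 to 279 lower. The number was 2120 (1340 higher, 780 lower) with the length slope as a covariate and 114 (95 and 19) without both sham replicate 1 and IR replicate 3. It was 3438 (2033 and 1405) with limma voom and quality weights, and DESeq2's Wald test called 562 genes lower. The cause of these changes was not tested. Fits that leave libraries out hold fewer of them, and the count also differed with the library left out. It was 232 without sham replicate 1 and 1070 without IR replicate 2. With the replicate block, 1236 genes were called (854 higher, 382 lower), with 8 genes in the difference from Sesn2-KO and 0 in that from young WT. The 7 genes of the difference from Sesn2-KO became 2 to 13 when 1 library was left out, 3 without both sham replicate 1 and IR replicate 3, 30 with DESeq2 and 23 with limma. The difference from young WT gave 0 calls under all of these. Upper quartile scaling called 610 higher and 397 lower. The fit of the aged WT libraries alone called 883 (561 higher, 322 lower), and 726 of these were among the 1054. With no filter on low counts 804 were called (512 higher, 292 lower), and 780 were among the 1054. Genes near 1 CPM rest on few counts, and for them depth limits the precision.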

Other observations

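The genes below lie outside the lists and were chosen after their values were seen, from calls kept whichever aged WT library was left out. Prg4, which encodes the lubricant lubricin, had the fourth smallest p of all genes and read 17.3, 26.4 and 20.1 CPM in sham and 148, 181 and 117 CPM in IR (log2 fold change 2.80 ± 0.26 SE, edgeR adjusted p = 3.15e-05). Podoplanin, Pdpn, a marker of lymphatic and activated stromal cells, read 6.06, 8.79 and 9.55 CPM in sham and 49.4, 29.3 and 43.2 CPM in IR (2.33 ± 0.27). The protease inhibitor Serpinb1a rose by 2.82, and the cytokine receptor chains Csf2rb and Il17ra rose by 1.75 and 1.69.

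Mlxipl, the glucose-sensing transcription factor ChREBP, fell from 28.3, 28.5 and 28.4 to 10.2, 10.4 and 15.9 CPM (-1.22 ± 0.23, adjusted p = 0.00564). Slc25a13, the mitochondrial aspartate-glutamate carrier, fell from 270, 236 and 241 to 141, 141 and 146 CPM (-0.81 ± 0.13, adjusted p = 0.00182). The matrix protein gene Hmcn1 fell by 1.23 on the log2 scale, from 42.6, 44.5 and 39.6 to 13.9, 19.6 and 20.6 CPM, and the planar polarity gene Celsr1 fell by 1.66.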
